A study of Mus musculus with 8 samples.

Results

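Mast cells were followed through 10 genes that mark them: the chymase-type proteases Mcpt1, Mcpt2, Mcpt4 and Cma1, the carboxypeptidase Cpa3, the tryptase Tpsb2, the receptor genes Kit, Fcer1a and Ms4a2, and the histamine-synthesising enzyme Hdc. The genes were taken by symbol from a deposited table of 53465 genes, and all 10 were found. Colon RNA of 8 mice on the B6 background had been sequenced, 4 from mice in which Arg1 was deleted conditionally in a chosen cell type (Arg1 ko) and 4 from littermates with intact Arg1 (wild type). Arg1 encodes arginase 1, an arginine-degrading enzyme, and the cell type that lost it is not named in the labels. Every mouse, wild type included, had drunk 2.5% dextran sulfate sodium (DSS), which injures the colon lining, for a week and plain water up to day 10, so that no uninflamed colon stands beside the groups. Their ages were 7 to 12 weeks, and the groups were matched for age and sex.

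Mast cells are granulated immune cells that arise from the bone marrow and finish maturing in tissues under stem cell factor, the ligand of the receptor Kit. Antigen that cross-links IgE on their high-affinity Fc receptor makes them release histamine and granule proteases. In mice, a mucosal type in the gut lining is known for the chymases Mcpt1 and Mcpt2 and multiplies in worm infection, while a connective tissue type in the submucosa and muscle wall is known for Mcpt4, Cma1, Cpa3 and Tpsb2.

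The chymases of both types lie in a single gene cluster on chromosome 14 of GRCm38. Mcpt1 spans chr14:56017971-56020384 on the plus strand, Mcpt2 spans chr14:56042041-56044642 on the plus strand, Mcpt4 spans chr14:56059629-56062313 on the minus strand and Cma1 spans chr14:55941451-55944675 on the minus strand, so that 121 kb hold all 4. The 250 bases before the start of transcription are shown for a mucosal chymase (Mcpt1) and both connective tissue chymases, to show which of them are alike. They come from RefSeq on GRCm38.p6, at chr14:56017714-56017963 for Mcpt1, chr14:56062311-56062560 for Mcpt4 and chr14:55944676-55944925 for Cma1. They run 5′ to 3′ toward the gene, and capitals mark the letters GATAA, a core of sites bound by GATA factors, or TTATC where it reads on the other strand.
Mcpt1: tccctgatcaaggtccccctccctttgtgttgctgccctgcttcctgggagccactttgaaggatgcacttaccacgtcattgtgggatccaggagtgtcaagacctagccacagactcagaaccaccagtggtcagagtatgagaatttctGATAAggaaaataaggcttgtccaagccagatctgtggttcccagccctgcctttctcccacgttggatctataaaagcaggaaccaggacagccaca
Mcpt4: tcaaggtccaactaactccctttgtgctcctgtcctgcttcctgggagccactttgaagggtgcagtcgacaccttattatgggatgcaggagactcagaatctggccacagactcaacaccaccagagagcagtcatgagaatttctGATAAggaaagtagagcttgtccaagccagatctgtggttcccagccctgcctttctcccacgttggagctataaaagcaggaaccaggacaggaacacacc
Cma1: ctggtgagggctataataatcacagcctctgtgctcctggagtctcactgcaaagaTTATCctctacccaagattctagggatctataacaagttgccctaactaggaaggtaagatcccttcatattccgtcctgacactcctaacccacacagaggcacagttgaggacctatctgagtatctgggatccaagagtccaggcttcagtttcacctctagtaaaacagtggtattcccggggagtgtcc
Aligned end to end, the Mcpt1 and Mcpt4 sequences were 81% identical over 258 columns, and GATAA lay at nearly the same place, 98 bases before the start in Mcpt1 and 102 bases before it in Mcpt4. The Cma1 sequence was 48.5% identical to that of Mcpt1 and 49.3% identical to that of Mcpt4, and other pairs of members reached no more than 49.1%. Of the 8 members with a RefSeq promoter entry, 6 held GATAA on either strand within 250 bases, namely Mcpt1, Mcpt4, Cma1, Cpa3, Fcer1a and Ms4a2. Among 32851 mouse promoters of that length, 22.6% held it. Kit and Hdc held no GATAA in the window, and no entry was found for Mcpt2 and Tpsb2. As the Mcpt1 and Mcpt4 sequences are so alike, their hits are not separate instances. Letters of E-box, AP-1, STAT and RUNX sites were searched as well. The RUNX letters TGTGGT lay in Mcpt1, Mcpt4, Cpa3 and Fcer1a, beside 14% of the mouse promoters. The E-box letters CACATG lay in Fcer1a, beside 12.3%. A match of letters is a description and says nothing about binding.

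Values are on the regularised log2 scale (rlog) of the deposited table, that is, counts scaled between libraries, log2 transformed and pulled toward each gene's mean, most of all for weakly expressed genes. They keep no read numbers, so the depth of each library is unknown. A difference of 1 is a doubling, and all differences are Arg1 ko minus wild type. Genes whose rlog averaged 3 or more were tested with limma (16380 genes, Benjamini-Hochberg adjustment over all of them). None passed an adjusted p of 0.05 (0% called; smallest adjusted p 0.522), 1490 had an unadjusted p under 0.05 (9.1%), and the groups did not overlap for 660 (4.03%). Arg1 itself ran from 4.87 to 5.19 in Arg1 ko and from 5.02 to 5.59 in wild type, with a difference of -0.37 (limma adjusted p = 0.522, exact permutation p = 0.114) and -0.24 after the length correction described next. The library labelled wild type 3 was at 5.02, inside the Arg1 ko range and unlike the other wild type libraries, and without it 1005 genes passed (6.14%). With the deletion confined to a chosen cell type, its Arg1 value in colon RNA cannot decide whether the label is right. It is called wild type 3 by its label alone, and every direction given here counts it as wild type unless stated. Libraries also differed in how values followed transcript length, with slopes per doubling of length between 0.01 and 0.08 in Arg1 ko and at -0.20 (wild type 1), -0.10 (wild type 2), 0.08 and 0.06 in wild type, for which a correction was computed. Epithelial genes were high, with Krt8 at a mean of 16.1 and Epcam at 15.3, and so were the smooth muscle genes Acta2 and Myh11, both at 14.8, although the protocol aims at epithelium shaken off in 30 mM EDTA.

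All members apart from Kit were at low levels, and they differed widely among themselves. On the rlog scale minus the log2 of transcript length in kb, which allows genes to be compared, Kit was highest at 8.73, followed by Mcpt1 at 5.19, Tpsb2 at 4.10, Mcpt2 at 3.80, Cpa3 at 2.99, Mcpt4 at 2.69, Cma1 at 2.64, Hdc at 2.40, Fcer1a at 1.52 and Ms4a2 at -1.41. Neighbours from Tpsb2 down to Hdc overlapped in their ranges over the 8 libraries, whereas Kit, Mcpt1, Fcer1a and Ms4a2 each stood apart from the next gene. Mcpt4, Cma1, Fcer1a and Ms4a2 lay under the filter of the test. In bulk tissue, fewer mast cells and less RNA per mast cell cannot be told apart.

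None of the 6 tested members passed (adjusted p 0.562 to 0.755, against 0% called among all tested genes), and none had an unadjusted p under 0.05. Mcpt1, Mcpt2 and Kit were higher in Arg1 ko and Cpa3, Tpsb2 and Hdc lower, with a median difference of -0.03, beside 0.0064 over all tested genes. Over all 10 members 6 were higher and 4 lower, the groups overlapped for every one, and the median difference was 0.04. The exact permutation test over the 70 assignments of libraries, whose smallest possible p is 0.0286, gave no member a p under 0.143.

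**Figure D1:**
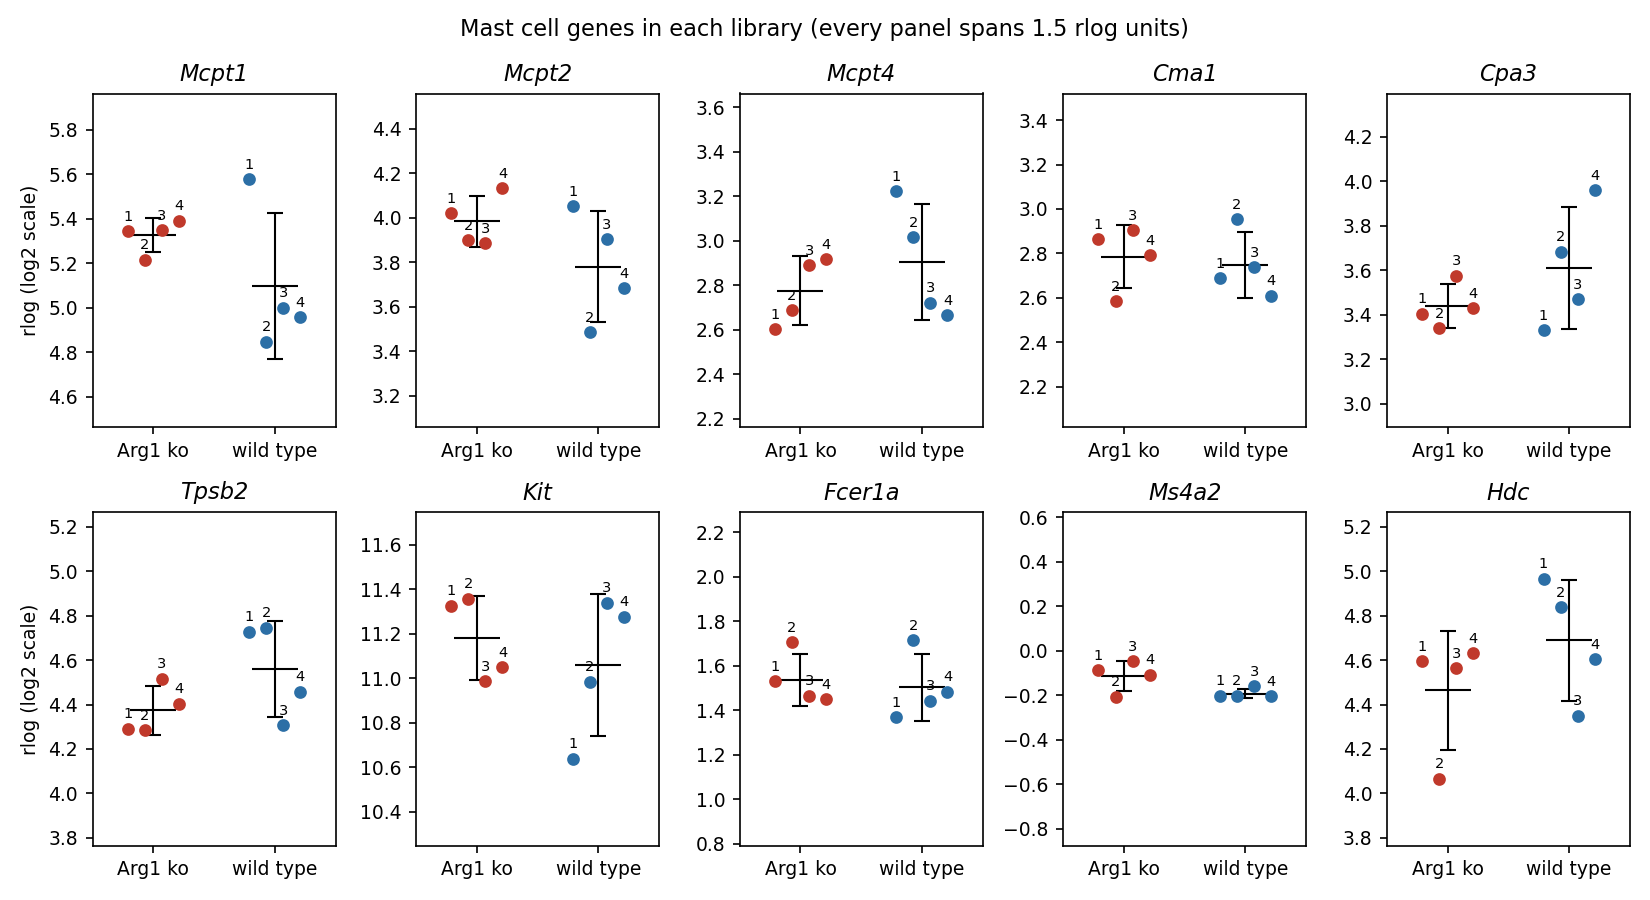
Rlog value (log2 scale) of the 10 mast cell genes in 4 Arg1 ko libraries (red) and 4 wild type libraries (blue), numbered by replicate, with the mean and SD of each group as bars; every panel spans 1.5 rlog units. The 4 Arg1 ko values of Mcpt1 lie between 5.21 and 5.39, while the wild type values lie at 5.58 for replicate 1 and between 4.85 and 5.0 for the others.

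The mucosal chymases were slightly higher on average in Arg1 ko, without passing the test. Mcpt1, the chymase that mucosal mast cells shed into the gut and the blood, had rlog values of 5.34, 5.21, 5.35 and 5.39 in Arg1 ko colons, against 5.58, 4.85, 5.0 and 4.96 in wild type colons. Wild type replicate 1 was the highest of the 8 libraries and the other wild type libraries were the lowest, so the groups overlapped through that library. The means were 5.32 ± 0.08 in Arg1 ko and 5.10 ± 0.33 in wild type (SD, n = 4 each). The difference was 0.23 (limma SE 0.16, 95% interval -0.13 to 0.59, adjusted p = 0.569, exact permutation p = 0.2). Without wild type 1 it was 0.39, the groups no longer overlapped, and the exact permutation p was 0.0286, the smallest possible there, while limma's adjusted p was 0.599. Mcpt1 was then the one tested member of 6 with separate groups, where 7.31% of all tested genes separated, 4.19% with Arg1 ko above. Without wild type 2 the difference was 0.15, and after correction for transcript length 0.39 (limma adjusted p = 0.50).

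Mcpt2, a chymase of the same cells, had values of 4.02, 3.90, 3.89 and 4.13 in Arg1 ko colons, against 4.05, 3.49, 3.90 and 3.68 in wild type colons. Wild type 2 and 4 were the lowest libraries, wild type 1 the second highest, and the groups overlapped. The means were 3.98 ± 0.12 in Arg1 ko and 3.78 ± 0.25 in wild type, and the difference was 0.20 (SE 0.14, limma adjusted p = 0.562, exact permutation p = 0.257). It ranged from 0.11 to 0.29 when single libraries were left out and was 0.36 after length correction. Both mucosal chymases had their 2 lowest values in wild type 2 and 4, and across the 8 libraries their correlation was r = 0.85 (exact permutation p = 0.00437, adjusted over 50 relations 0.0519) and rho = 0.81 (exact permutation p = 0.0218, adjusted 0.255). It was 0.62 without wild type 2 and 4, 0.81 within genotypes and 0.90 after length correction. The longest transcripts of both genes were 70.9% identical, and their longest shared run was 49 bases. Reads of up to that length can match both genes there, and the counting of reads with several matches is not described in the labels.

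The connective tissue proteases had no common direction. Mcpt4, a chymase that is regarded as the closest counterpart in function of human chymase, had values of 2.60, 2.69, 2.89 and 2.92 in Arg1 ko colons, against 3.22, 3.02, 2.72 and 2.67 in wild type colons. Wild type 1 and 2 were the highest libraries, wild type 3 and 4 lay among the Arg1 ko libraries, and the groups overlapped. The difference was -0.13 (exact permutation p = 0.429) and 0.02 after length correction, a change of direction. It was -0.03 without wild type 1, -0.07 without Arg1 ko 1 and -0.21 without wild type 4. Runs of at least 50 bases that also occur in Cma2 or Mcpt9 cover 14.1% of the bases of the Mcpt4 transcript. A read that lies wholly within such a run also matches another gene.

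Cma1, the chymase that is stored together with Cpa3, had values of 2.86, 2.58, 2.90 and 2.79 in Arg1 ko colons, against 2.69, 2.95, 2.74 and 2.61 in wild type colons. Libraries of both genotypes were mixed over the whole range. The difference was 0.04 (exact permutation p = 0.714), 0.19 after length correction, and at or below 0 without Arg1 ko 3 (-0.0009) or wild type 4 (-0.0077), and 0.11 without Arg1 ko 2 or wild type 2. Runs of that length shared with the predicted gene Gm48934 cover 14.1% of the Cma1 transcript.

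Cpa3, the granule carboxypeptidase A that nearly all mast cells carry, had values of 3.40, 3.34, 3.58 and 3.43 in Arg1 ko colons, against 3.33, 3.68, 3.47 and 3.96 in wild type colons. Wild type 4 was the highest and wild type 1 the lowest library, with the Arg1 ko libraries between them. The means were 3.44 ± 0.10 in Arg1 ko and 3.61 ± 0.27 in wild type, and the difference was -0.17 (SE 0.14, limma adjusted p = 0.612, exact permutation p = 0.286). It was -0.06 without wild type 4, -0.27 without wild type 1 and -0.04 after length correction. Although Cpa3 is stored beside Cma1, wild type 4 held the highest Cpa3 value and one of the lowest Cma1 values.

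Tpsb2, the tryptase of connective tissue mast cells, had values of 4.29, 4.28, 4.52 and 4.40 in Arg1 ko colons, against 4.73, 4.75, 4.31 and 4.46 in wild type colons. Wild type 1 and 2 stood above every Arg1 ko library and the library labelled wild type 3 among the lowest, so the groups overlapped. The means were 4.37 ± 0.11 in Arg1 ko and 4.56 ± 0.21 in wild type, and the difference was -0.19 (SE 0.13, limma adjusted p = 0.568, exact permutation p = 0.2). Without wild type 3 it was -0.27 (limma adjusted p = 0.178, the smallest of any member under any alternative), and after length correction it was -0.04. The next gene on chromosome 17, Tpsg1, which codes for a membrane-anchored tryptase, starts 174 bases after the end of Tpsb2 on the same strand and was far higher, at a mean rlog of 9.85.

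Set side by side, the protease types moved apart in some libraries and not in others. Each gene's values were centred on its mean over the 8 libraries and averaged within the type. The mucosal minus connective tissue value was 0.24, 0.19, -0.0008 and 0.23 in Arg1 ko colons, against 0.18, -0.58, -0.0042 and -0.25 in wild type colons. Wild type 2 was lowest and wild type 1 lay among the Arg1 ko libraries. In Arg1 ko 3 and in wild type 3 both types lay nearly equally far, and on the same side, from their own means. The mean was 0.16 ± 0.11 in Arg1 ko and -0.16 ± 0.33 in wild type, a difference of 0.33. The mucosal type by itself differed by 0.22 and the connective tissue type by -0.11. It was 0.19 without wild type 2, 0.44 without wild type 1, and 0.31 without Cpa3, which mucosal mast cells also carry. After length correction the difference was 0.34, made up of 0.38 for the mucosal and 0.03 for the connective tissue type. This contrast is a description without a test, since the genes were chosen with results known, and Mcpt4 and Cma1 enter it with values that rlog draws strongly toward their means.

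**Figure D2:**
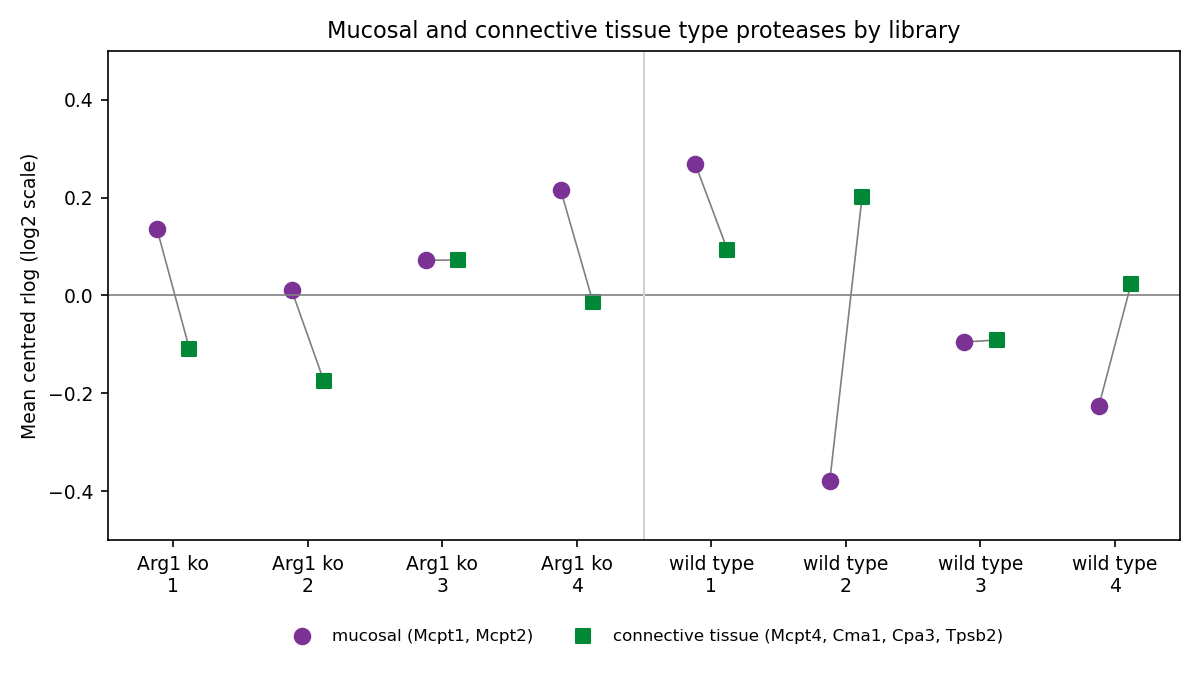
Mean centred rlog (log2 scale) of the mucosal proteases (purple circles) and the connective tissue proteases (green squares) in each library, Arg1 ko on the left and wild type on the right, joined by a line within a library. Mucosal minus connective tissue values are 0.24, 0.19 and 0.23 in Arg1 ko 1, 2 and 4, and -0.58 and -0.25 in wild type 2 and 4.

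The receptors for IgE were the weakest members. Fcer1a, which codes for the IgE-binding alpha chain, had values of 1.53, 1.71, 1.47 and 1.45 in Arg1 ko colons, against 1.37, 1.71, 1.44 and 1.48 in wild type colons, with mixed groups and a difference of 0.04 (exact permutation p = 0.686). Ms4a2, which codes for the signal-amplifying beta chain, had values of -0.09, -0.21, -0.05 and -0.11 in Arg1 ko colons, against -0.20, -0.20, -0.16 and -0.20 in wild type colons. Arg1 ko 1, 3 and 4 were above all wild type libraries and Arg1 ko 2 was the lowest library, with a difference of 0.08 (exact permutation p = 0.143). The groups overlapped through Arg1 ko 2 alone, so leaving it out necessarily gave the smallest possible exact permutation p, 0.0286. The share of all genes that separate without that library was not computed. In limma without a filter, over all 8 libraries, the unadjusted p was 0.0407 and the adjusted p 0.656. At this level rlog has taken nearly all spread out of the values, and runs of at least 50 bases shared with Ms4a4b cover 4.68% of the Ms4a2 transcript.

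Hdc, which makes histamine from histidine, had values of 4.60, 4.07, 4.56 and 4.63 in Arg1 ko colons, against 4.97, 4.84, 4.35 and 4.60 in wild type colons. Wild type 1 and 2 were highest, Arg1 ko 2 was far below the other libraries, and the groups overlapped. The means were 4.46 ± 0.27 in Arg1 ko and 4.69 ± 0.27 in wild type, and the difference was -0.23 (SE 0.17, limma adjusted p = 0.597, exact permutation p = 0.286). It was -0.09 without Arg1 ko 2, -0.34 without wild type 3 and -0.29 after length correction. Hdc is also made by other myeloid cells, and of 6 tested neutrophil markers 5 were lower in Arg1 ko, with a median of -0.40 and a summed level (log2) of 8.70 to 9.16 in Arg1 ko and 8.68 to 10.7 in wild type. Ly6g, the highest of these markers at a mean of 8.23, had the largest difference (-1.35), followed by S100a9 (-0.69) and S100a8 (-0.60). Retnlg was at -0.21 and Mmp8 at -0.03, while Csf3r was higher in Arg1 ko (0.28). The groups overlapped for each of them. The part of neutrophils in the Hdc values was not tested.

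**Figure D3:**
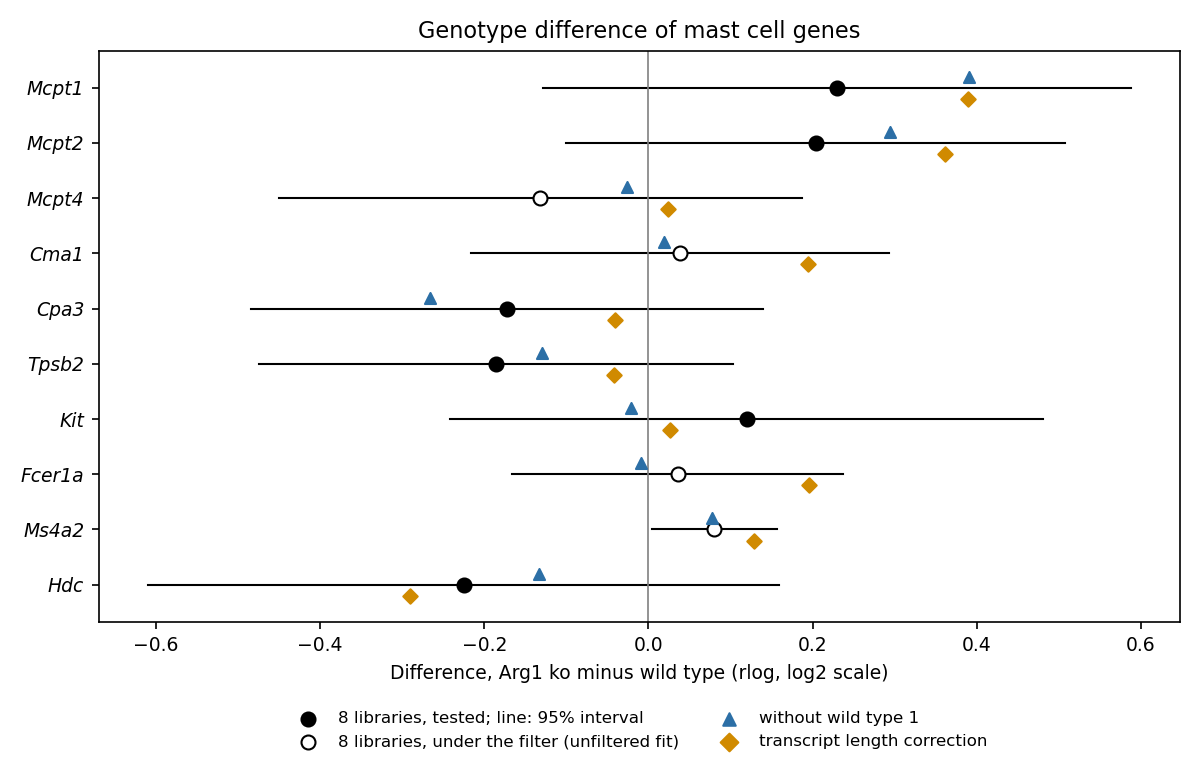
Difference in rlog (log2 scale), Arg1 ko minus wild type, of the 10 mast cell genes with 95% intervals over 8 libraries; filled circles were tested, open circles come from the fit without a filter, triangles leave out wild type 1 and diamonds correct for transcript length. Intervals of the 6 tested genes all contain 0, and the Mcpt1 difference is 0.23 over all libraries and 0.39 under either alternative.

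Kit was far above every other member, at a mean rlog higher than 86.8% of tested genes. Kit codes for the receptor of stem cell factor, and interstitial cells of Cajal, the pacemaker cells of the gut muscle, are known to carry it as well. Its values were 11.33, 11.36, 10.99 and 11.05 in Arg1 ko colons, against 10.64, 10.99, 11.34 and 11.28 in wild type colons. Wild type 1 was lowest, and the upper values were shared between Arg1 ko 1 and 2 and wild type 3 and 4. The difference was 0.12 (SE 0.16, limma adjusted p = 0.755, exact permutation p = 0.457), -0.02 without wild type 1, 0.21 without wild type 3 and 0.03 after length correction.

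Kit was set against the other members and against genes of a second cell type that carries it. Of its 9 pairs with other members 6 had a negative correlation, and 4 after length correction. Of 5 genes of interstitial cells of Cajal the closest to Kit was Ano1, the chloride channel by which interstitial cells of Cajal are recognised. The others were less close, with r = 0.84 for Etv1, 0.72 for Hcn4, 0.69 for Gjc1 and 0.36 for Thbs4. Their adjusted p in the exact permutation test ran from 0.0519 (Etv1) to 0.773 (Thbs4). By genotype 3 of the 5 genes were higher in Arg1 ko and 2 lower, with a median difference of 0.05. Ano1 had values of 10.16, 10.17, 9.81 and 10.06 in Arg1 ko colons, against 9.02, 9.47, 10.35 and 10.32 in wild type colons, lowest in wild type 1 and 2. Over the 8 libraries Kit and Ano1 had r = 0.93 (exact permutation p = 0.000769, adjusted over 50 relations 0.0384) and rho = 0.88 (exact permutation p = 0.00724, adjusted 0.179). The coefficient was 0.85 without wild type 1 and Arg1 ko 2, 0.93 within genotypes and 0.79 after length correction. The share of all genes that follow Kit as closely was not computed. The relation is therefore not shown to be particular to genes of interstitial cells of Cajal. Like Ano1, the fibroblast marker Pdgfra and the endothelial marker Cdh5 were lowest in wild type 1 and 2, while the fibroblast marker Dcn was not. For Mcpt4 and Kit, r was -0.97 (exact permutation p = 0.00171, adjusted 0.0428) and rho -0.79 (exact permutation p = 0.0279, adjusted 0.255). That coefficient was -0.91 without wild type 1 and 2, -0.97 within genotypes and -0.72 after length correction. Both relations passed the threshold by r and not by rank, and no relation of the 50 passed by rank (smallest adjusted p 0.112, exact permutation). Kit has a transcript of 5241 bases and Mcpt4 one of 1108, and wild type 1 and 2, at the low Kit end, were the libraries with falling slopes on length. The part of length in these relations was tested only by the correction given here.

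**Figure D4:**
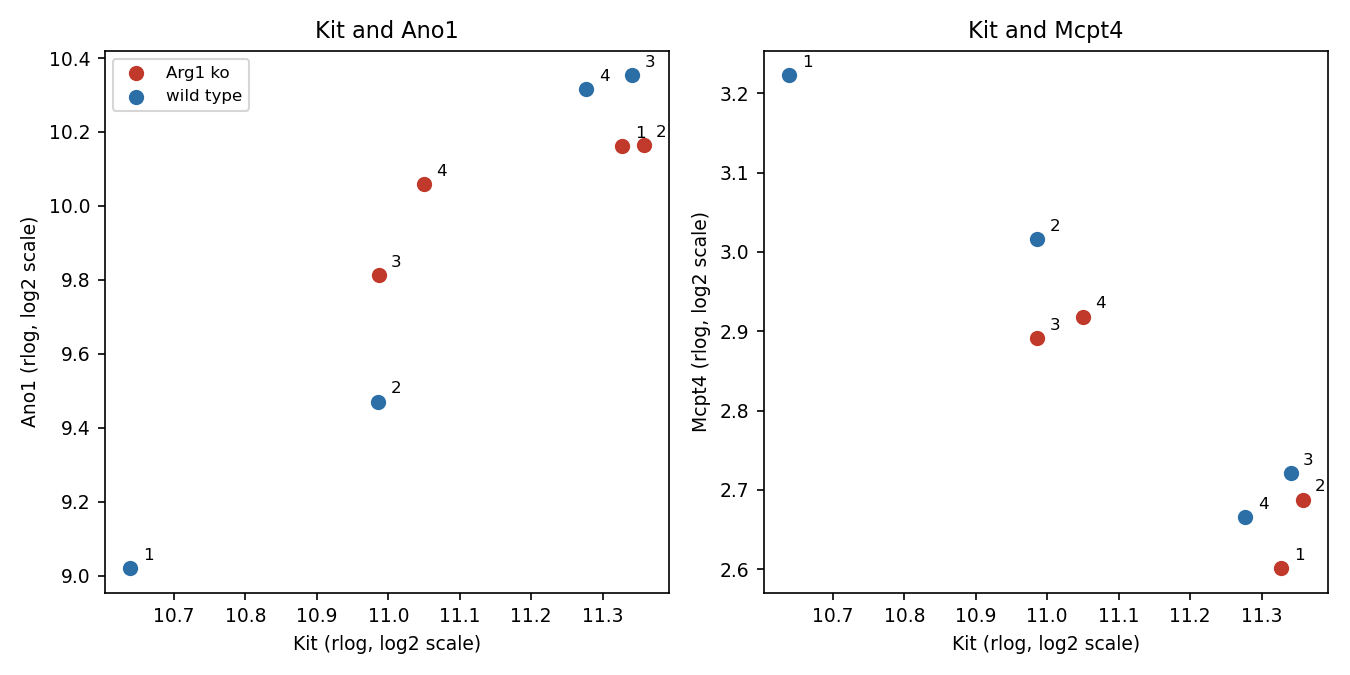
Rlog values (log2 scale) of Ano1, left, and Mcpt4, right, against Kit in 4 Arg1 ko libraries (red) and 4 wild type libraries (blue), numbered by replicate. Ano1 climbs with Kit (r = 0.93) and Mcpt4 declines with it (r = -0.97), with wild type 1 at the low end of Kit at 10.64.

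Pairs of members were about as often positive as negative. Over 45 pairs the median r was -0.02 and 22 were positive. Besides Mcpt1 with Mcpt2, the closest positive pairs were Mcpt4 with Tpsb2 (r = 0.86, adjusted p = 0.0519 in the exact permutation test) and Tpsb2 with Hdc (r = 0.82, adjusted p = 0.0914 in the exact permutation test). After length correction they were 0.36 and 0.44, whereas that of the mucosal chymases was 0.90.

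Further genes of the lineage were counted from lists. Of 25 further mast cell genes found, 17 were tested, none past the test, with 7 above and 10 below wild type and a median difference of -0.05. Those with the smallest p were Smpx, a small muscle protein (-0.37), Cd63, a granule membrane protein also common in other cells (-0.33), Srgn, the proteoglycan core on which granule proteases are packed (-0.25), and Tpsg1 (-0.16), each with overlapping groups. Without wild type 1 the difference was -0.23 for Smpx, -0.21 for Cd63, -0.22 for Srgn and -0.06 for Tpsg1. The lineage factors Gata2 and Mitf had mean rlog values of 5.94 and 6.63, and Slc18a2, the transporter that loads histamine into granules, 7.11. At the bottom of the scale in both groups were Gata1 (-0.53), Mrgprb2, the receptor for peptide activators of connective tissue mast cells (-1.38), Mcpt9 (-0.38) and Tpsab1 (-2.1), the tryptase gene known to be defective in C57BL/6 mice. Of the basophil genes, the basophil protease Mcpt8 was at -1.40 in every Arg1 ko library and ran from -1.40 to -1.22 in wild type, and Prss34, a second basophil protease, averaged -1.74. The other two genes of that list were higher in both groups, with Cd200r3 at a mean of 2.07 and Il18rap, which T and NK cells also carry, at 5.0.

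All 22 genes of Fc epsilon receptor signalling were tested, 10 higher and 12 lower, with a median of -0.02 and none past the test. Lat2, an adaptor of the receptor, was at 6.16 to 6.25 in Arg1 ko and 6.41 to 6.93 in wild type, with Arg1 ko wholly below wild type, beside 1.67% of all tested genes, and a difference of -0.44 (limma adjusted p = 0.522). Vamp8, a fusion protein of granules, had a difference of -0.43 (limma adjusted p = 0.522, and 0.0438 without wild type 3, where 6.14% of all genes passed). The Vamp8 value was -0.26 without wild type 1. The kinase Syk had 0.23, which stayed between 0.18 and 0.30 when any single library was left out. The calcium channel Itpr1 had 0.23 as well, but 0.07 without wild type 1 and 0.37 without wild type 3. Mean rlog values were 11.6 for Vamp8, 10.3 for Syk, 10.0 for Itpr1 and 6.41 for Lat2, above every member except Kit. Which cells of the colon this RNA came from was not tested, so these values cannot be read as those of mast cells.

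Among 16 tested growth and homing genes of mast cells 9 were higher and 7 lower, with a median of 0.04 and none past the test. Kitl, the stem cell factor itself, had values of 11.31, 11.08, 10.95 and 11.07 in Arg1 ko colons, against 10.58, 10.51, 11.27 and 10.63 in wild type colons. Wild type 1, 2 and 4 were below all Arg1 ko libraries and the library labelled wild type 3 was the second highest, and the groups overlapped. The difference of 0.36 did not pass (limma adjusted p = 0.522). Without that library it was 0.53 (limma adjusted p = 0.0324, where 6.14% of all genes passed). Fibroblasts are a known source of Kitl, and 5 of 6 fibroblast markers were higher in Arg1 ko, with a median of 0.44 and a summed level (log2) of 14.8 to 14.9 in Arg1 ko and 14.4 to 14.7 in wild type. The largest differences were those of the collagen genes Col1a1 (0.83), Col3a1 (0.70) and Col1a2 (0.57). Lum had 0.31, while Pdgfra (0.06) and Dcn (-0.11) differed little. The part of fibroblasts in the Kitl values was not tested. Il4ra, the receptor chain for interleukin 4, was at 10.78 to 10.87 in Arg1 ko and 10.88 to 11.27 in wild type. The difference was -0.21 (limma adjusted p = 0.522). Arg1 ko was wholly below wild type only by a narrow gap, beside 1.67% of all tested genes with Arg1 ko below. Itgae, an integrin chain by which mucosal mast cells are retained in the epithelium, had 0.29 and Csf2rb, the common beta chain of cytokine receptors, 0.21. Without wild type 4 the difference was 0.17 for Itgae, 0.12 for Csf2rb and -0.13 for Il4ra, and without wild type 3 it was 0.49 for Itgae and 0.35 for Csf2rb. The mast cell growth factors Il3 and Il9 were listed at 0 in all libraries.

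Of the 6 tested genes of histamine reception and breakdown 5 were higher and 1 lower, with a median of 0.09 and none past the test. The differences were 0.17 for Aoc1, the diamine oxidase that breaks histamine down, 0.22 for the transporter Slc22a3, 0.13 for the receptor Hrh1 and -0.05 for Hnmt, the histamine methyltransferase. Single libraries moved them widely. The difference was 0.09 for Aoc1 without wild type 1 and 0.29 without wild type 4. It ranged from 0.11 (without wild type 4) to 0.40 (without wild type 3) for Slc22a3, from 0.03 (without wild type 4) to 0.18 for Hrh1, and from -0.10 to -0.02 for Hnmt. Hrh4 was listed at 0.

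**Figure D5:**
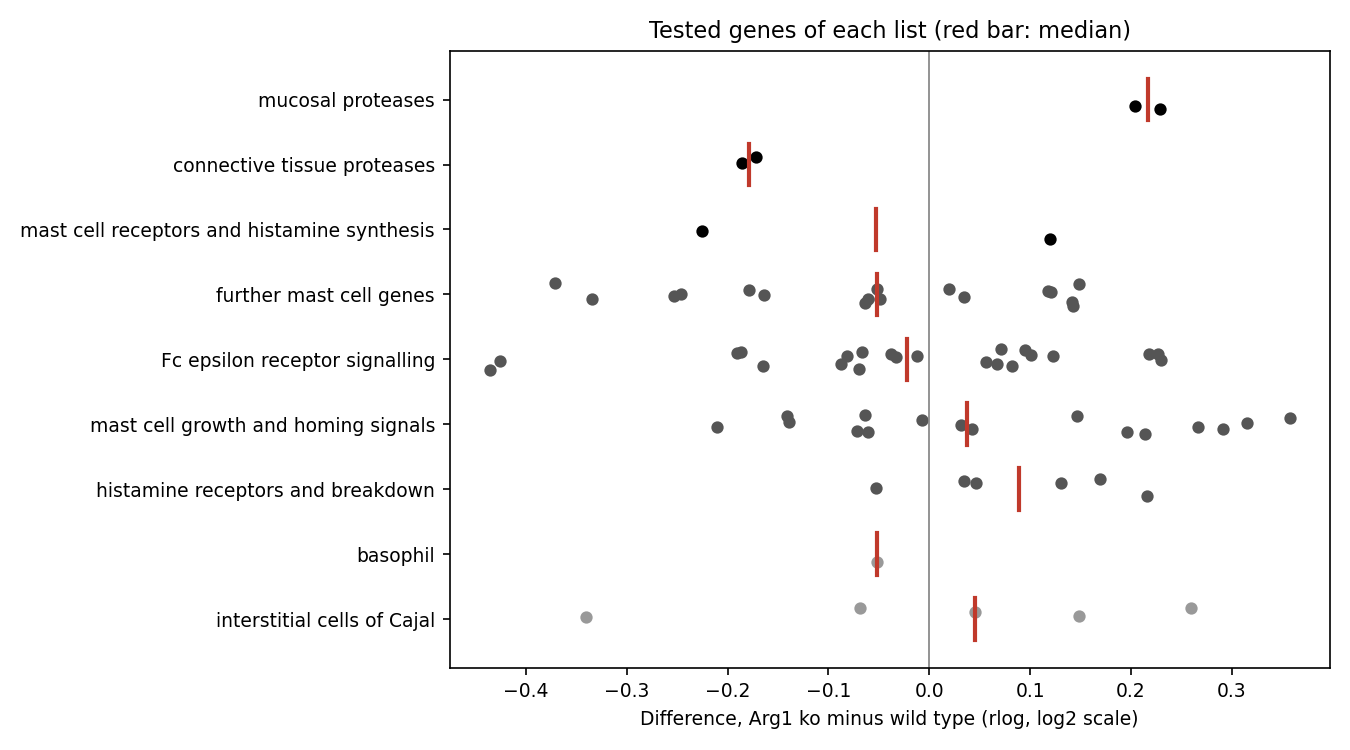
Difference in rlog (log2 scale), Arg1 ko minus wild type, of every tested gene in the 7 mast cell lists, the basophil list and the list of interstitial cells of Cajal as points, with the median of each list as a red bar. The medians of these 9 lists lie between -0.18 for the connective tissue proteases and 0.22 for the mucosal proteases, with points on both sides of 0 in each of the larger lists.

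Genes whose values resembled those of a protease type over the 8 libraries were sought among protein-coding genes other than the members, so that no member could appear. Genes with Gm or Rik names and antibody or T cell receptor segments were left out too. None of the genes named below is in the mast cell lists. Among 14297 genes ranked by correlation with the mean centred rlog of a type, the closest to the mucosal proteases were Tra2a (r = 0.94), Elavl1 (0.93), Ifit3b (0.93), Trmt44 (0.93) and Zfp934 (0.93). The closest to the connective tissue proteases were B4galt1 (0.97), Kctd5 (0.97), Prss22 (0.96), Vps29 (0.94) and Ngb (0.94). With 8 libraries and so many genes, coefficients of this size describe the pattern only. When the genotype means were removed first, 0 of the 5 mucosal neighbours and 2 of the 5 connective tissue neighbours remained among the top 5.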

How the data were processed

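RNA of 8 colon samples, 4 Arg1 ko and 4 wild type, was sequenced from 1000 ng of total RNA with a stranded mRNA kit, per the labels' protocols. The submitters' processing notes name DESeq2 1.16.1, featureCounts of Subread 1.5.3, the aligners STAR 2.5.2b and BWA 0.7.14-r1136, and GRCm38, without order, annotation or strand setting. The authors deposited rlog values on a log2 scale. Counts cannot be recovered, so precision from depth is unknown. All columns were matched to samples by label, and 53274 of 53465 IDs had a symbol in GENCODE vM21.

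Groups follow the genotype labels. Replicate numbers are accession order and pair nothing. P-values measure spread between these samples, which may be partly technical. The members, the gene lists (159 symbols) and the tests were chosen with earlier results of these data known. Genes averaging 3 or more rlog units were tested two-sided with limma 3.58.1 in R 4.3.3 (empirical Bayes with a mean trend, Benjamini-Hochberg over 16380 genes at 0.05), and single members by an exact two-sided permutation of 70 assignments. Shrinkage in rlog makes differences of weak genes too small. Named are all members, Arg1, up to 4 genes of a list by smallest p (by mean for other cell types), any past the test, and the 5 genes most like each protease type. Ano1, the 50 correlations and other genes named from the lists were chosen after their values were seen. Alternatives were a filter of 5 or none, a single prior variance, robust moderation, aligned medians, quantile normalisation, leaving out each library, and, added after seeing the data, a correction for transcript length. The fit was tested on simulated data. Sequences are from RefSeq on GRCm38.p6; levels per kb use the longest GENCODE transcript.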

Additional observations from a re-analysis of the deposited data

Results flagged for a closer look

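Among 44 genes or contrasts with printed values, 10 single libraries stood far from the rest of their group, 2 of them in members. Chance gives about 1 in 20 groups, and 88 groups were looked at. Of the members, Arg1 ko 2 was at 4.07 for Hdc, while the other Arg1 ko libraries lay between 4.56 and 4.63, and wild type 3 was at -0.16 for Ms4a2, above the other wild type libraries at -0.20. The library labelled wild type 3 was also far below its group in Arg1 (5.02) and above it in Kitl (11.27) and, near the bottom of the scale, in Mcpt9 (-0.38). Wild type 1 was above its group in Mcpt8 (-1.22) and Gata1 (-0.50), and wild type 4 below it in Hrh1 (7.35). Arg1 ko 1 was above its group in Srgn (8.97) and Arg1 ko 3 in Tpsab1 (-2.08). In Tpsab1, Mcpt8, Mcpt9, Gata1 and Ms4a2 the values lie so low that these gaps are small on the rlog scale.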

How the results depend on the processing

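Over 122 alternatives for single members, 116 kept the direction. Of these 122, 86 had a limma p and none of them passed (smallest adjusted p 0.178), while 36, on members under the filter, were values with no test. The other 6 turned round in 4 members, with main differences of -0.13 (Mcpt4), 0.04 (Cma1), 0.12 (Kit) and 0.04 (Fcer1a). The median absolute difference of all tested genes was 0.14. Mcpt4 turned with the length correction (0.0239). Over fits that leave out 1 library, Cma1 ran from -0.0077 to 0.1071 and was below 0 also without Arg1 ko 3 (-0.0009). Kit ran from -0.0211 to 0.2129. Fcer1a ran from -0.0205 to 0.106 and was below 0 also without wild type 1 (-0.0091). The cause was not tested. Leaving out single libraries gave 0 to 1005 genes past the test over all genes, 1005 without wild type 3 (467 higher, 538 lower). The Arg1 difference ranged from -0.5129 without that library (limma adjusted p = 0.0418) to -0.3067 as libraries were left out, and was -0.244 with the length correction. The Arg1 groups overlapped through wild type 3 alone, so leaving it out necessarily separated them, and that p is no check of the labels. Members with an exact permutation p under 0.05 numbered 0 to 1, Mcpt1 without wild type 1 and Ms4a2 without Arg1 ko 2. In each case the library left out was the one through which the groups of that gene overlapped. No paired analysis was possible because the replicate numbers only name samples. Of the 10 members 4 lie under the filter, and the depth behind them is unknown.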
